A study of Mus musculus with 2 samples.

Results

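SRCAP occupancy was mapped by CUT&Tag in mouse embryonic stem cells, and the widest of its regions are described here. Peaks of both replicates were pooled and merged where they overlapped, and mitochondrial peaks were dropped, which left 15653 regions. Regions were chosen by their width, at least 800 bp from end to end, and by a soft-masked (repeat) share under 50% of their bases in mm10. This gave 516 wide regions, or 3.99% of the 12932 regions under the soft-masked limit, and the other 12416 are called narrower. Another 132 regions were wide but soft-masked at or above the limit and were left out.

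The cells were SYAT cells, a line of CGR8 mouse embryonic stem cells. YPet, a fluorescent protein, and AID, an auxin-inducible degron, are fused to the C terminus of SRCAP from its 2 endogenous alleles, and the cells carry the plant receptor OsTir1. Both libraries came from 1 group, SYAT NT, in which auxinole, an antagonist of OsTir1, was added to prevent loss of SRCAP without auxin. Cells grew in serum and LIF for 3 days, 200000 cells were used per library, and an anti-GFP antibody, which recognises YPet, directed the Tn5 transposase for 1 h. SYAT is 1 engineered line, no library without the antibody was analysed here, and a peak list cannot show whether the cells express stem cell markers. With 1 group no test between conditions was possible, and the replicates are 2 libraries that the study describes in general terms as independent cultures, while the labels name no culture. Shares are given with 95% Wilson intervals, and differences of shares with Newcombe's 95% interval. These cover counting error only, since regions of 1 library are not replicates.

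SRCAP is the ATPase of a remodeler that places the histone variant H2A.Z into nucleosomes in exchange for H2A. H2A.Z is known to sit in the nucleosomes that flank the nucleosome-depleted stretch at a transcription start site (TSS). Many mammalian promoters lie in CpG islands, stretches rich in CpG dinucleotides, and neighbouring genes on opposite strands can share 1 such promoter, which is then called divergent.

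The sequences of 6 wide regions are printed to show the base composition that most of them had in common and the exception to it. They were taken from the GRCm38.p6 (mm10) genome of RefSeq, outside exons annotated by GENCODE or RefSeq. The first 5 lie upstream of a TSS of a coding gene and read along that gene's strand, and the last lies around the midpoint of a region in an intron. Capitals mark CpG dinucleotides, and the letters run 5′ to 3′.
Sp4, chr12:118301441-118301640, minus strand: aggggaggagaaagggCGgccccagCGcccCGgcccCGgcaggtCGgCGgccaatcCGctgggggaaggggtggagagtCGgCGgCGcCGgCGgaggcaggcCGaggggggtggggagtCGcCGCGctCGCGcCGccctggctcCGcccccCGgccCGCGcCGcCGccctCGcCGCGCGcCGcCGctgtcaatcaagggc
Ankrd10, chr8:11635927-11636126, minus strand: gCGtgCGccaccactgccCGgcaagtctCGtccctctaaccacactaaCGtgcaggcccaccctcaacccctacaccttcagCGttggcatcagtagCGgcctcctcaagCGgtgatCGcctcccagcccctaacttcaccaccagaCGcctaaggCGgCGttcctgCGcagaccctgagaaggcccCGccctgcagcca
Kat6b, chr14:21500254-21500453, plus strand: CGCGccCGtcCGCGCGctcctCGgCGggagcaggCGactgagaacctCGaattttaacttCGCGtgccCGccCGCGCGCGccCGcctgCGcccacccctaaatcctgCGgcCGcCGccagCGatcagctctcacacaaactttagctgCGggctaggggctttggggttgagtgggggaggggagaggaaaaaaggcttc
Pop7, chr5:137502519-137502672, minus strand: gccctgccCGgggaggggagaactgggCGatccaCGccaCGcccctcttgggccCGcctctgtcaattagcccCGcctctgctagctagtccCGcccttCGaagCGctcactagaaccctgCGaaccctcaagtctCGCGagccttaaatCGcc
between Rbbp4 and Zbtb8os, Rbbp4 strand, chr4:129335371-129335531, minus strand: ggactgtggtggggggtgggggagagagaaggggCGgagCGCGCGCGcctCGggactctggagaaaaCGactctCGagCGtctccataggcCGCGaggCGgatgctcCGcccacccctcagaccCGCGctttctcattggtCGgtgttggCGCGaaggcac
Peg3 intron, chr7:6728159-6728358, plus strand: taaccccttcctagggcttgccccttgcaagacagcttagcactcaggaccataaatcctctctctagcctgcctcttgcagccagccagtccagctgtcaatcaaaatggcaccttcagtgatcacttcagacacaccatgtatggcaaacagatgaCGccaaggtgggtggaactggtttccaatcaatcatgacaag
The Sp4 stretch, in front of a gene of the SP family of GC-box-binding factors, held 31 CpG in 200 bases at 82% GC. The stretch at Kat6b, a histone acetyltransferase, held 24 CpG in 200 bases at 67% GC. It lies 400 bases upstream of a GENCODE TSS of that gene but inside the gene as RefSeq gives it, from 21499216, since Kat6b has several start sites. The Ankrd10 stretch held 14 in 200 bases, and the shorter stretch in front of Pop7, which encodes a subunit of RNase P, held 13 in 154 bases. Between Rbbp4, a histone chaperone, and Zbtb8os there were 18 CpG in 161 bases. The Peg3 stretch differed from these 5, with 1 CpG in 200 bases at 50.5% GC. Peg3 is an imprinted gene that encodes a zinc finger protein.

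The width came mainly from replicate 2. Of the 516 wide regions, 366 were covered by peaks of both replicates, while 145 rested on replicate 2 alone and 5 on replicate 1 alone. Both replicates covered 70.9% (66.9 to 74.7%) of wide and 19.3% (18.7 to 20.1%) of narrower regions, and replicate 2 alone 28.1% and 62.8%, though joining peaks of both lists makes a region wider by construction. In 354 of them, 1 peak of each replicate was joined, and 12 joined 3 or 4 peaks. The median width of the wide regions was 900 bp, with quartiles of 842 and 993 bp and a maximum of 2282 bp. A peak that was itself at least 800 bp wide came from replicate 2 alone in 360 regions, from replicate 1 alone in 27 and from both in 30. In the other 99 regions neither peak reached that width, and the merged peaks spanned it only together. Where both replicates covered a region, the replicate 2 peak was the wider one in 310 of 366, and the narrower peak of the pair had a median of 501 bp. The stretch within both replicates' span was a median of 47.5% of the region.

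**Figure D1:**
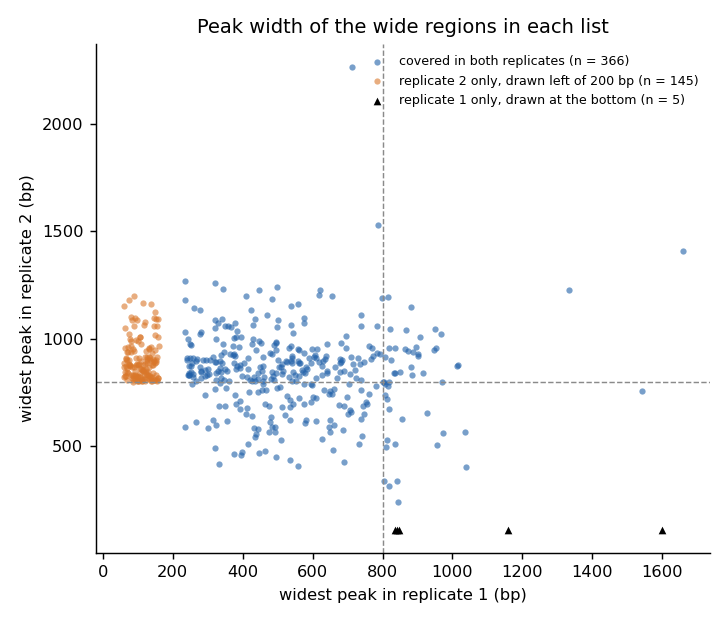
Widest peak of each wide region in replicate 1 (horizontal axis, bp) and in replicate 2 (vertical axis, bp), with dashed lines at 800 bp. The 366 regions covered in both replicates lie mostly left of the vertical line, 145 regions without a replicate 1 peak are drawn at the left with an arbitrary horizontal spread, and the 30 points to the upper right of both lines had a wide peak in both lists.

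There were 12958 peaks for replicate 2 and 6158 for replicate 1, of which 6 each were mitochondrial. Peaks of at least 800 bp numbered 495 and 101 once mitochondrial peaks were dropped. The lists give no read numbers, so the depth of both libraries is unknown, and depth, peak number and peak width cannot be told apart here. The score of a peak, a whole number that starts at 13, is the peak caller's significance value and depends on depth. Width and score went together across peaks (Spearman's rho 0.38 over 6152 peaks of replicate 1 and 0.46 over 12952 peaks of replicate 2). The best score of a region had a median of 68 in wide regions and 34 in narrower regions, which comes from the same readout as the width and is given only as a description.

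To see whether width held from 1 library to the other, peaks were chosen by their width in 1 list and looked up in the other. Only peaks under the soft-masked limit were used. Of 57 peaks of at least 800 bp in replicate 1, 91.2% (81.1 to 96.2%) overlapped a replicate 2 peak, and those peaks had a median width of 840 bp. Of 4943 shorter peaks of replicate 1, 55.2% (53.8 to 56.6%) did, with a median of 465 bp. In the other direction, 62.8% (57.9 to 67.5%) of 390 wide peaks of replicate 2 overlapped a replicate 1 peak, with a median width of 496 bp. For 10330 shorter peaks of replicate 2 the share was 24.5% (23.7 to 25.4%), with a median of 356 bp. In both directions, wide peaks were found again more often than all shorter ones pooled and had wider partners. A wide peak overlaps a peak of the other list more easily, and width went with score. The part of each in these shares was not tested. The class just below, from 600 to under 800 bp, was close to them in replicate 1, with 88.3% (83.8 to 91.7%) overlapped, and lay at 51.9% (48.8 to 54.9%) in replicate 2. The partner reached 800 bp for 30 peaks either way, which is 52.6% of the wide peaks of replicate 1 and 7.69% of those of replicate 2. Over the 2768 regions covered in both replicates, the widths had a Spearman's rho of 0.34 and a Pearson's r of 0.39.

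The widest region lay at the lincRNA gene Gm26917 (chr17:39843112-39845393, 2282 bp). Its widest peak was 713 bp in replicate 1, where 3 peaks were joined, and 2266 bp in replicate 2, and its best scores were 35 and 163. A second wide region followed 414 bp further on (chr17:39845808-39846665) and overlaps Rn18s-rs5, a ribosomal RNA pseudogene of RefSeq. In the first and second region, 1.51% and 13.3% of stretches of 31 bases occurred elsewhere in the assembled chromosomes. Copies outside the assembly were not counted, so these shares cannot show whether reads there have a unique place. Among regions with a coding TSS of GENCODE inside, the widest was at Sp4 (chr12:118301109-118302639, 1531 bp), with peaks of 787 and 1531 bp and scores of 66 and 87. The Ankrd10 region (chr8:11635231-11636581, 1351 bp) had peaks of 1333 and 1229 bp and scores of 74 and 168. It was 1 of the regions that were wide in both replicates.

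Other wide regions took their width from replicate 2. At Stk25, a protein kinase gene, the region of 1271 bp (chr1:93635058-93636328) had peaks of 382 and 1007 bp and scores of 25 and 91. At Kat6b the region of 1270 bp (chr14:21500027-21501296) had peaks of 236 and 1270 bp and scores of 44 and 81. The region of 1261 bp shared by Hist1h2ac and Hist1h2bc, genes of the core histones H2A and H2B (chr13:23683471-23684731) had peaks of 321 and 1261 bp and scores of 35 and 78. In all 3, the replicate 1 peak was under 400 bp. The histone region also shared 54.6% of its 31-mers, stretches of 31 bases, with other places in the assembled chromosomes, where reads of that length have no unique place.

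Of the 12 widest regions, 6 had no GENCODE TSS within 1 kb of their midpoint. The region chr3:61363118-61364892 (1775 bp) had widest peaks of 681 and 892 bp in replicates 1 and 2, and further peaks were joined in it. It holds the start of Rap2b, a small GTPase, in RefSeq but no TSS in GENCODE, the annotation used for all counts unless RefSeq is named. The region chr7:6727623-6728894 (1272 bp) lies in an intron of Peg3, 1527 bp from its TSS. It had peaks of 448 and 1229 bp and scores of 43 and 38. The remaining 4 lay in sequence with copies elsewhere. They were chr9:123924518-123926183 (1666 bp, nearest coding gene Ccr1), chrY:90799082-90800739 (1658 bp, nearest coding gene Gm47283), chr6:54977228-54978826 (1599 bp, nearest coding gene Nod1) and chr12:113335401-113336666 (1266 bp, nearest coding gene Tmem121 at 149471 bp, within the immunoglobulin heavy chain locus Igh of RefSeq). In these, 32.8%, 70.5%, 88.5% and 67.9% of 31-mers occurred elsewhere. The region near Nod1 was covered in replicate 1 only, with a score of 13, the lowest in either list.

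Regions that were wide in both replicates lay mostly at promoters. Ranked by the width of the narrower of both peaks, the leading regions after chromosome Y and Ankrd10 included a region at Wwox, an oxidoreductase gene at a fragile site (chr8:114439403-114440367), with peaks of 952 and 955 bp and scores of 38 and 72. At Pop7 (chr5:137502007-137502952), both peaks were 946 bp wide, with scores of 60 and 101. At Egfr, the epidermal growth factor receptor (chr11:16752141-16753131), they were 901 and 931 bp, with scores of 71 and 54. In these 3 regions the widths of both replicates lay close together. At Yipf6 (chrX:98937055-98937980) the peaks were 900 and 921 bp, with scores of 52 and 111. Between Rbbp4 and Zbtb8os (chr4:129335009-129335971) they were 895 and 963 bp, with scores of 83 and 60. At Clcn3, an endosomal chloride and proton exchanger (chr8:60982800-60983949), they were 880 and 1148 bp, with scores of 87 and 191. The same ranking held the promoter of the noncoding gene 1700012D14Rik (950 and 1043 bp), the promoter shared by Etfdh, an electron transfer enzyme, and 4930579G24Rik (906 and 1010 bp), and the one shared by Fzd4, a Wnt and norrin receptor, and Tmem135 (886 and 938 bp). Of the 30 regions that were wide in both lists, 29 had their midpoint within 1 kb of a TSS, 28 had a CpG island and 5 lay on chromosome 8. Among all 516 wide regions, 89.9% lay this near a TSS, 94.8% had an island and 56 regions lay on chromosome 8.

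The strongest scores were not at the widest regions. The highest lower score of both replicates belonged to a region of 1043 bp at the pseudogenes Gm10222 and Gm28438 (chr1:24612529-24613571), with scores of 1553 and 1006 and peaks of 966 and 1021 bp. In it, 94.7% of 31-mers also occurred in the mitochondrial genome, and its GC content was 34.4%, the lowest of all wide regions. It was the only wide region with at least 10% of such 31-mers, and among narrower regions there were 0. The next was at Sfi1, a gene for a centrin-binding protein (chr11:3192799-3193724, 926 bp), with scores of 847 and 1209. Then followed Aco1, the cytosolic aconitase and iron regulatory protein (172 and 209), the lncRNA gene 4932412D23Rik (156 and 173), whose region also holds the start of Zbtb20 in RefSeq, the promoter shared by Pdcd10 and Serpini1 (144 and 265) and the pseudogene Gm42642 (141 and 223), where 24.2% of 31-mers occurred elsewhere. The first 2 regions thus stood far above the others in both lists.

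Just inside the width limit were Syk, a tyrosine kinase (800 bp, covered in replicate 2 only), Snx1, a sorting nexin (800 bp, both replicates), and the promoter shared by Coa5 and Unc50 (801 bp, replicate 2 only). Among the regions narrower by 1 bp than the limit were those at Dazap1 and Gamt (both replicates), at Zfp62 (replicate 2 only) and 754940 bp from the TSS of Inhba, the nearest coding gene (replicate 2 only). The first 10 bp above the limit held 40 members and the last 10 bp below it 35 regions, so the limit falls within a continuous range.

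Most wide regions lay at promoters. A promoter was taken to begin 1000 bp before a TSS and to end 500 bp after it. Because a wide region overlaps a window more easily, its midpoint was used as the main measure. The midpoint lay in a promoter window for 89.3% (86.4 to 91.7%) of wide and 55.8% (54.9 to 56.7%) of narrower regions, a difference of 33.5 points (30.5 to 36.1). Any overlap with the window gave 89.9% and 57.7%, and a TSS inside the region, which favours wide regions, gave 86.0% and 37.8%. In each replicate's own list, the midpoint share was 87.7% of 57 wide peaks in replicate 1 and 89.7% of 390 in replicate 2, a mean of 88.7% ± 1.43 (SD, n = 2). For shorter peaks it was 64.2% and 58.9%, a mean of 61.6% ± 3.76 (SD, n = 2). The values of the wide peaks lay above those of the shorter peaks in both replicates.

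The difference was smaller among strong or shared regions. Among regions covered in both replicates, the midpoint share was 93.2% (90.1 to 95.3%) of wide and 80.1% (78.5 to 81.6%) of narrower regions. With a best score from 50 to under 100 it was 90.5% and 77.6%, and from 100 to under 200 it was 97.3% and 88.2%, differences of 12.9 points (8.35 to 16.3) and 9.10 points (3.6 to 12.7). With a best score under 50 it was 80.9% of 141 wide and 47.9% of 9289 narrower regions, a difference of 33.0 points (25.6 to 38.7). At 200 or more there were only 10 wide regions, and the interval of the difference, from -23.6 to 28.5 points, held 0.

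The promoter share was higher in each wider class, named here by its lower limit. It was 40.4% under 300 bp, 52.2% from 300 bp, 68.2% from 400 bp, 80.9% from 600 bp, 89.3% from 800 bp and 89.5% (82.9 to 93.8%) at 1000 bp or more. The last 2 classes did not differ beyond their intervals. In the list of replicate 1 alone, 9 peaks reached 1000 bp, and the share there was 55.6%, with an interval from 26.7 to 81.1%.

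**Figure D2:**
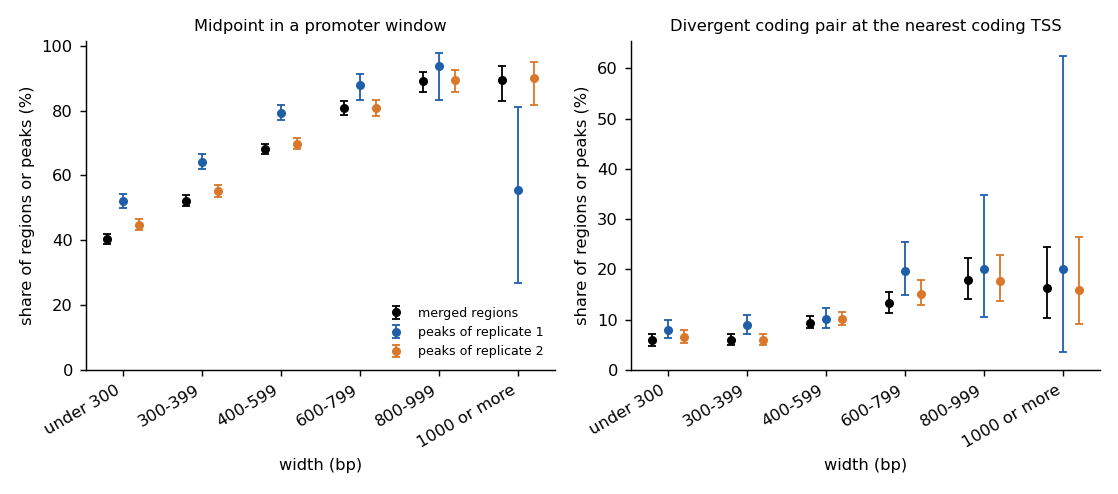
Share (vertical axis, %) of merged regions, of replicate 1 peaks and of replicate 2 peaks by width class (horizontal axis, bp), with 95% Wilson intervals as bars. On the left, the share with the midpoint in a promoter window rises from 40.4% to 89.5% of merged regions, and on the right, the share with a divergent coding pair rises from 5.83% to between 16.2% and 17.8%.

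By annotation, 89.9% of wide midpoints lay within 1 kb of a TSS and 1.36% from 1 to 2 kb. Exons held 0.581%, introns 1.94% and intergenic sequence 6.20%. For narrower regions, these shares were 58.6%, 4.18%, 3.61%, 17.0% and 16.6%. The intronic share differed by -15.1 points (-16.2 to -13.3). Coding genes were at the promoter window of 441 wide regions, only noncoding genes at 23 and no gene at 52.

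Divergent promoters were more frequent at wide regions. A divergent coding pair was taken as 2 coding TSSs on opposite strands, pointing away from each other and up to 1000 bp apart. Of 436 wide regions with a coding TSS within 1 kb of the midpoint, 76 had such a pair at the nearest TSS (17.4%, 14.2 to 21.3%). Of 6364 narrower regions, 525 had 1 (8.25%, 7.60 to 8.95%), a difference of 9.18 points (5.83 to 13.1). In the lists of replicates 1 and 2, the share was 20% and 17.4% of wide peaks and 9.72% and 8.86% of shorter peaks. Among all coding genes of the annotation, 9.82% belonged to a divergent pair. That share counts genes by any of their coding TSSs, whereas the shares above count regions by the TSS nearest to the midpoint. Among regions with a best score under 50, the shares were 6.42% of 109 wide and 6.86% of 4021 narrower regions, a difference of -0.442 points (-3.82 to 5.85), so the difference was not detectable there.

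In the divergent pairs, the TSSs were a median of 176 bp apart in wide and 180 bp apart in narrower regions. Both TSSs lay inside the region in 67 of 76 wide and 236 of 525 narrower regions, a count that the width limit itself favours and that is given only as a description. The region reached a median of 361 bp past the minus-strand TSS and 364 bp past the plus-strand TSS in wide regions, and 198 and 228 bp in narrower ones. With similar distances between the TSSs, this longer reach also follows from the width limit and is only a description. The pair was taken at the TSS nearest to the midpoint, which centres it. The widest after the histone pair, named after its values were seen, joined Cep57 and Fam76b (chr9:13826826-13828053, 1228 bp, TSSs 609 bp apart), with peaks of 622 and 1228 bp and scores of 43 and 106. At least 2 genes of any type had a TSS within 1 kb of the midpoint in 33.0% (28.9 to 37.4%) of wide and 23.1% (22.2 to 24.1%) of narrower regions near a TSS. The median number of distinct TSS positions in that window was 4 and 3.

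The reach on both sides of the TSS was measured where no other gene had a TSS within 2 kb and the TSS lay inside the region. In 250 such wide regions, the median reach was 476 bp upstream and 440 bp downstream, with quartiles of 371 and 602 bp upstream and 338 and 546 bp downstream. In 2731 narrower regions it was 179 bp upstream and 244 bp downstream. Both reaches together make up the region's width, so the longer reach of wide regions follows from the width limit and is only a description. What the limit does to the balance of both sides was not tested. The reach was longer downstream than upstream in 42.4% (36.4 to 48.6%) of wide and 60.3% (58.4 to 62.1%) of narrower regions, a difference of -17.9 points (-24.1 to -11.4). In the list of replicate 2 the shares were 42.4% of 191 wide and 61.0% of 2400 shorter peaks. In replicate 1 they were 59.1% of 22 wide and 59.2% of 1155 shorter peaks, a difference of -0.13 points with an interval from -20.7 to 17.8. The difference was therefore not seen in replicate 1, at a precision that does not exclude the size found in replicate 2. The TSS nearest to the midpoint was used, which draws both values together where a gene has several TSSs. With genes of 1 TSS position, the share was 48.8% (38.4 to 59.3%) of 84 wide and 62.5% (59.4 to 65.5%) of 979 narrower regions.

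**Figure D3:**
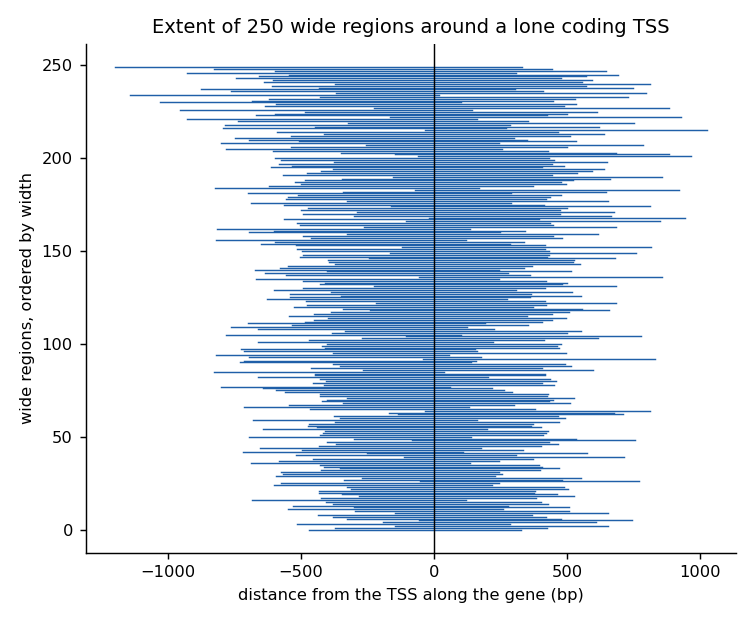
Extent of the 250 wide regions around a lone coding TSS, 1 line per region, ordered by width from the narrowest at the bottom, with the distance from the TSS along the gene (bp) on the horizontal axis. The lines reach to a median of 476 bp upstream (left) and 440 bp downstream (right).

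Wide regions were richer in GC and CpG than narrower ones in windows of the same length. In 500 bp around the midpoint, the median GC content was 64.4% (quartiles 59.8 and 68.8%) in wide and 57.6% (51.6 and 64.2%) in narrower regions. The observed number of CpG over that expected from the C and G content had a median of 0.78 and 0.53. Such a window lies inside every wide region but reaches past most narrower ones, whose median width was 352 bp. Over the whole region, the median GC content was 62.7% in wide and 58.1% in narrower regions, and the ratio 0.75 and 0.52. A CpG island, made of 200-bp windows with at least 50% GC and a ratio of at least 0.6, was found at 94.8% (92.5 to 96.4%) of wide and 65.9% (65.1 to 66.7%) of narrower midpoints. In the lists of replicates 1 and 2, the median GC content was 64.2% and 64.4% for wide peaks (mean 64.3% ± 0.14, SD, n = 2) and 59.8% and 58.2% for shorter ones (59.0% ± 1.13, SD, n = 2). The gap between the classes exceeded the spread between replicates.

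Part of this went with the promoters, so midpoints within 1 kb of a TSS were compared on their own. There the median GC content was 65.2% in 464 wide and 62.4% in 7272 narrower regions, and the CpG ratio was 0.79 and 0.72. The island had a median length of 1145 bp (quartiles 850 and 1440 bp) and 860 bp (568 and 1190 bp). Among regions of this kind with a best score from 50 to under 100, island length was 1190 bp in 229 wide and 930 bp in 2070 narrower regions, and from 100 to under 200 it was 1220 and 1035 bp. With 9 wide regions at 200 or more, the order was the other way, 1060 and 1105 bp. By width class, island length near a TSS went from 780 bp under 300 bp through 890 bp from 400 to under 600 bp to 1110 bp from 800 to under 1000 bp and 1260 bp at 1000 bp or more. Of 456 wide regions near a TSS that had an island, 322 (70.6%) were no longer than it, against 5963 of 6572 narrower ones (90.7%). This is only a description, since region width was used to choose them.

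The profile across the midpoint showed the excess around the centre and not at its ends. In the 100 bp to the left of the midpoint, wide regions near a TSS held a mean of 8.46 CpG per 100 bp and narrower regions 6.90. At 500 to 600 bp to the right the means were 4.77 and 3.67, and at 1900 to 2000 bp to the right they were 1.05 and 1.07. In the outermost bins the order was the other way, with a mean GC content of 42.8% and 43.9% around wide regions and 44.3% and 44.2% around narrower ones.

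**Figure D4:**
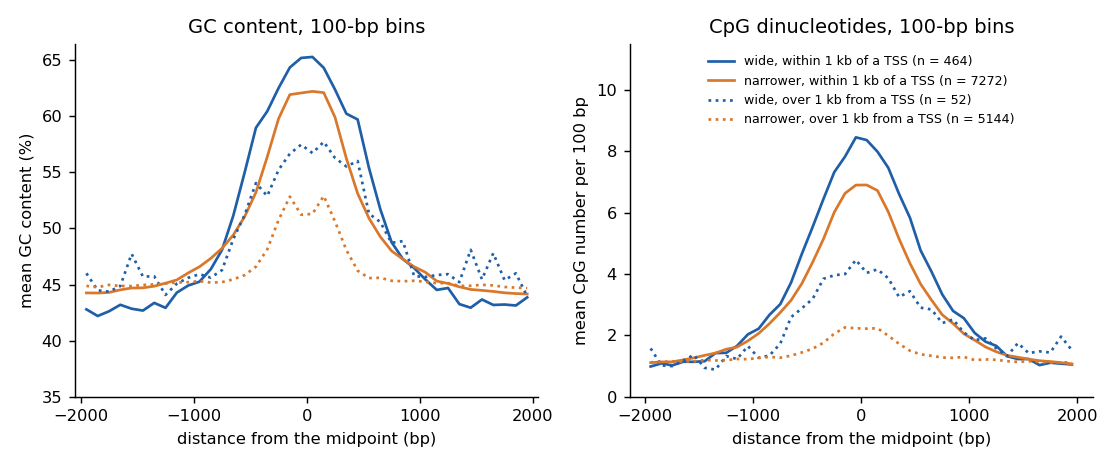
Mean GC content (left, %) and mean number of CpG dinucleotides per 100 bp (right) in 100-bp bins against the distance from the region's midpoint (bp), for wide and narrower regions whose midpoint is within 1 kb of a TSS (solid) or farther away (dotted). The solid line of wide regions peaks at 8.46 CpG per 100 bp against 6.90 for narrower ones, and both are near 1 CpG per 100 bp at 2 kb.

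Short exact motifs were then counted in the 500 bp around the midpoint, on both strands. As above, these windows reach past most narrower regions. The letters were NRF1 GCGCATGCG, YY1 AAGATGGCG, NFY CCAATCA, SP/KLF GGGCGGGG, ETS CCGGAAG, CREB TGACGTCA, E-box CACGTG, ZBTB33 CTCGCGAGA, ZFP143/THAP11 ACTACAATT, octamer ATGCAAAT, CTCF AGGGGGCGC and a T-rich control TTTTTTTT. Matches of different motifs overlapped in 3 wide regions, once each for the SP/KLF letters with those of NFY, NRF1 and ETS. A match is a description of the sequence and not a bound site.

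Among all wide and narrower regions, 8 of 12 motifs had an interval of the difference without 0, and among those near a TSS 4 of 12 did. The largest difference near a TSS was that of the SP/KLF letters, the GC box, in 43.1% (38.7 to 47.6%) of wide and 34.5% (33.4 to 35.6%) of narrower windows. Around the first TSS of all 21829 coding genes with a coding transcript, 26.9% of windows of this length held them. The NFY letters, a CCAAT box, were in 15.3% and 12.2% of windows near a TSS, the YY1 letters in 4.96% and 3.25%, and the ZBTB33 letters in 2.80% and 1.39%. At all coding first TSSs these were in 10.5%, 2.86% and 1.07%. The intervals of the NFY and YY1 differences began close to 0, at 0.0026 and 0.024 points. NRF1, ETS, CREB, E-box, ZFP143/THAP11, octamer, CTCF and T-rich letters near a TSS had intervals of the difference that held 0. The GC content of the windows differed as given above, and its part in the motif counts was not tested. Of the sequences printed above, the Ankrd10 stretch held the SP/KLF letters, the Pop7 stretch the ZBTB33 letters and the Peg3 stretch the NFY letters.

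**Figure D5:**
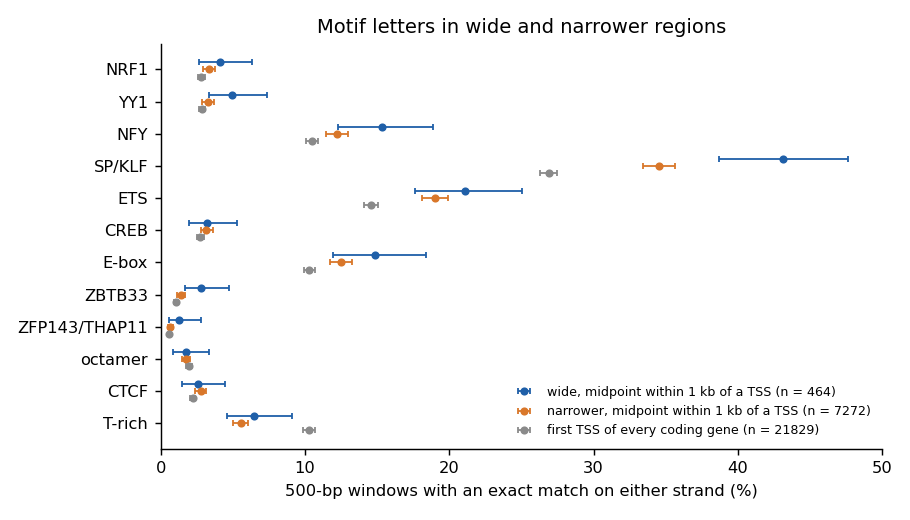
Share of 500-bp windows (horizontal axis, %) with an exact match to each motif's letters (vertical axis) in wide regions near a TSS, narrower regions near a TSS and around the first TSS of every coding gene, with 95% Wilson intervals as bars. The SP/KLF letters stand at 43.1%, 34.5% and 26.9%, and the intervals of wide and narrower regions overlap for most other motifs.

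A wide region lay at the promoter of 526 of 21910 coding genes, or 2.4%. Of the 7419 coding genes with any region at the promoter, 7.09% had a wide one. Most of these counts rest on replicate 2, since without it the number of coding genes was 57, against 397 without replicate 1. Any region at all lay at 33.9% of coding genes. Against these shares, 15 gene lists were counted. Since the members were chosen on width, a list near the background says nothing particular about its genes.

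Genes of the SRCAP complex and H2A.Z had a region at 5 of 12 promoters and a wide one at 0. Of 17 EP400-TIP60 genes, which encode the other remodeler that deposits H2A.Z, 9 had a region and 1 a wide one, Mbtd1, on a region of 900 bp with peaks of 242 and 900 bp that it shares with Utp18. Pluripotency genes had 7 regions at 21 promoters and lineage genes 5 at 18, with 0 wide in both lists. Polycomb genes had a region at 13 of 25 promoters, immediate-early genes at 11 of 22 and Hox genes at 2 of 39, again with 0 wide. At these list sizes, 0 allows a share of up to 13.3% of Polycomb genes and 15.5% of pluripotency genes, the upper end of the Wilson interval.

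Factors that bind promoters had 2 wide regions at 21 genes. At Sp1, the GC-box factor, the region of 848 bp had peaks of 690 and 848 bp and scores of 120 and 107. At Gabpa, an ETS factor, the region of 966 bp had peaks of 371 and 966 bp and scores of 23 and 48. Of 23 BAF genes only Smarce1 had a wide region, of 878 bp, in replicate 2 only. Of 44 splicing genes only Hnrnpa1 had 1, of 891 bp, with peaks of 405 and 889 bp. Ribosomal protein genes had a region at 32 of 101 promoters and a wide one only at Rps27l, of 913 bp. Mitochondrial ribosomal protein genes had a region at 42 of 78 and a wide one at 0. Of 67 clustered histone genes, 3 had a wide region, namely Hist1h2ac and Hist1h2bc on their shared one and Hist4h4 on one of 907 bp in replicate 2 only. Among 15 Snhg genes, which host small nucleolar RNAs, 5 had a region and 0 a wide one, beside 1.14% of 55304 annotated genes of any type.

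Zinc finger genes named Zfp formed the largest group. Of 394, 18 had a wide region at the promoter, 4.57% (2.91 to 7.11%) of all and 9.05% (5.8 to 13.8%) of those with a region. The first share lay above the 2.4% of coding genes and the second had 7.09% within its interval. The widest of them was at Zfp41 (1028 bp, peaks of 741 and 546 bp), followed by Zfp91 (963 bp, replicate 2 only), Zfp830 (940 bp, replicate 2 only) and Zfp146 (937 bp, peaks of 347 and 937 bp). Coding genes with a wide promoter region had a median length of 34246 bp, those with a narrower region only 28674 bp and those with no region 12602 bp.

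Outside promoters, 52 wide regions had their midpoint more than 1 kb from a TSS. Peaks of both replicates made up 24 of these, while 26 came from replicate 2 alone and 2 from replicate 1 alone. The median distance to the nearest TSS was 7.10 kb, and 31 lay within 10 kb. RefSeq, which was looked up after these regions were seen, placed a gene start within 1 kb of 10 of them, and some of these starts were those of tRNA genes. Narrower regions were not looked up, so no background share stands beside this count. A CpG island was present at 33 of the 52 wide regions (63.5%, 49.9 to 75.2%), against 31.3% (30.1 to 32.6%) of 5144 narrower regions this far from a TSS. At least 10% of 31-mers occurred elsewhere in 10 of 52 (19.2%, 10.8 to 31.9%) and in 9.62% (8.85 to 10.5%) of the narrower ones, a difference of 9.61 points (1.13 to 22.3). Over all regions the shares were 6.40% of wide and 7.63% of narrower ones, a difference of -1.23 points (-3.10 to 1.26).

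By chromosome, the share of regions that were wide was 5.96% (4.62 to 7.67%) of 939 regions on chromosome 8 and 3.84% (3.51 to 4.21%) of 11681 on the other autosomes, a difference of 2.12 points (0.73 to 3.85). In the lists of replicates 1 and 2, the share of wide peaks was 2.15% and 5.04% on chromosome 8 and 1.03% and 3.52% on the other autosomes. Chromosome 8 held 56 wide regions, 0.43 per Mb, against 0.19 per Mb on the other autosomes, and the X chromosome held 8. The number per Mb also depends on regions of any width, of which chromosome 8 held more than any other chromosome. Chromosome 8 was singled out after its count was seen, and the share on chromosome 19 was close to it, 5.83% (3.85 to 8.75%) of 360 regions. The highest share was that of chromosome Y, 30% (10.8 to 60.3%), from 3 of 10 regions. Of 495 pairs of neighbouring wide regions, 3 were less than 10 kb apart, namely the Gm26917 pair, a pair near Gm21860 on chromosome Y and that of Clcn3 and Nek1, 8812 bp apart.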

How the data were processed

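SRCAP-YPet CUT&Tag libraries of 2 replicates of SYAT cells were used, read as 37 nt pairs per the labels, whereas the study's methods give a longer read, so 31-mer copies limit unique placement less if the latter holds. For each, the authors deposited a peak list that gives the position of each peak and a score, the whole-number value of their peak caller, read here as 10 times the −log10 of the q-value since its minimum of 13 matches a q-value of 0.05. The submitters' processing notes name STAR, Picard and MACS2, with no version, and the builds mm10 and dm6. The study's methods describe unique alignments, removal of duplicates and of other chromosomes, downsampling by Drosophila reads, MACS2 on paired fragments and a blacklist under a heading for ChIP-seq and CUT&Tag together. The reporting form gives a MACS2 command with an input control in its ChIP-seq part, which lists the anti-GFP antibody too. The 6 mitochondrial peaks in each list lie outside the chromosomes kept by that filter, and whether the other steps and the control apply to these lists was not stated for them. Read numbers are not in the lists, so depth is unknown, and both peak number and score depend on it.

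Peaks that overlapped by at least 1 bp were merged. Genes came from GENCODE mouse release M21 (TSSs of any transcript), sequence from GRCm38.p6, RefSeq. GC content and motifs were taken in 500 bp around the midpoint, islands from 200-bp windows in steps of 10 bp within 3000 bp on each side, and 31-mers were counted over the assembled chromosomes. With 1 group of 2 libraries no p-value was computed. The regions and gene lists were chosen with earlier results of these data known.

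Named regions were the 12 widest, the 12 with the widest narrower peak, the 6 with the highest lower score, up to 4 per gene list, 3 on each side of the width limit and the 5 widest outside promoters. The lookups of RefSeq starts, tRNA genes, mitochondrial sequence and 31-mers, and the reach around the TSS in each list, were added after the data were seen. Alternatives covered the width and soft-masked limits, the score, the windows and each replicate alone. The scripts were tested on simulated data. Python 3.11.15, numpy 2.4.6, numba 0.67.0, pysam 0.24.0 and matplotlib 3.10.9 were used.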

Additional observations from a re-analysis of the deposited data

How the results depend on the processing

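No paired analysis was possible because both libraries belong to the same group. Of 241 values recomputed under alternatives, 129 stayed within the interval of the value reported, or within 1.5 times of a count, 112 did not, and 0 changed sign. All 33 differences in promoter share were above 0, 31 of them with their interval. The causes of the changes below were not tested.

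With a width limit of 700 bp, there were 975 regions, 989 coding genes, a share covered in both replicates of 66.8%, a midpoint promoter share of 86.4% and a median island of 1020 bp. With 1000 bp, there were 124 regions, 126 genes, 79.0% covered in both and an island of 1220 bp. With no limit on soft-masked bases, the promoter share of wide regions was 72.7% by midpoint and 74.1% by overlap, the differences were 26.1 and 25.8 points, and GC content was 63.6%, the CpG ratio 0.74 and the island 1010 bp. With peaks scored at least 50, there were 319 regions, 339 genes, 39.8% covered in both, promoter shares of 92.2% and 92.5%, and differences of 12.7 and 11.9 points. Coding transcripts alone gave 82.6% and 84.5%, and a TSS inside the region gave 86.0% and 48.2 points. By score, shares were 80.9% and 82.3% under 50 and 97.3% for both measures from 100 to under 200. The differences were 12.9 and 12.1 points from 50, 9.10 and 8.07 points from 100 and 8.52 points for both measures at 200 or more. Regions covered in both replicates gave 93.2% and 93.4%, and 13.1 and 11.8 points. Single peaks of at least 800 bp were covered in both in 64.0%, those chosen in replicate 1 in 91.2% and those chosen in replicate 2 in 62.8%. GC content was 65.5% in 300 bp and 62.7% over the whole region, where the CpG ratio was 0.75.

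With 1 replicate left out, the number of wide regions ranged from 57 to 390, of coding genes from 57 to 397, the midpoint difference from 23.5 to 30.8 points and the overlap difference from 22.1 to 29.8 points. The lower value came each time without replicate 2.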

Other observations

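Transfer RNA genes within 1 kb of the midpoint, a window of the same length for every region, were looked up in RefSeq after the wide regions were seen. A tRNA gene was found there for 6 of 516 wide regions (1.16%, 0.534 to 2.51%) and for 41 of 12416 narrower ones (0.33%, 0.244 to 0.448%). All 6 were covered in replicate 2 only. Of the 52 wide regions away from a TSS, 4 had 1 (7.69%, 3.03 to 18.2%), against 17 of 5144 narrower regions. Near a TSS the shares were 0.431% of 464 wide and 0.33% of 7272 narrower regions, a difference of 0.101 points whose interval, from -0.251 to 1.23, held 0. The region at 1700064H15Rik on chromosome 3, of 888 bp and with a score of 64, had 4 tRNA genes in that window, for tyrosine, alanine and arginine tRNAs.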
